A study of Homo sapiens with 8 samples.

Results

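The 49 genes described here carry a cell from G1 into S phase and copy its DNA: cyclins and their kinases, E2F factors and pocket proteins, origin licensing and helicase factors, the replication fork, and nucleotide supply. They were chosen by name as a list of known function, drawn up with earlier results of these data known. All 49 were found among the 58735 genes of the count table by Ensembl identifier and GENCODE 29 symbol, and 48 of them were among the 15647 genes with enough reads to test. The remaining member, the D-type cyclin CCND2, had 2, 0, 0 and 4 reads in the shSMURF1 libraries and 3, 0, 1 and 2 reads in the shControl libraries and was not tested.

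The libraries came from SRA01/04, an established line of human lens epithelial cells immortalised with SV40 large T antigen. There were 4 libraries of cells with a short hairpin RNA against SMURF1 (shSMURF1), a ligase that marks SMAD proteins and TGF-β receptors with ubiquitin, and 4 of cells with a control hairpin (shControl). Both groups had received 20 ng/ml TGF-β2 over 48 h, and cells without TGF-β2 were not compared. The sources used here give neither the number of hairpins nor whether each line was a clone or a pool, and the replicates are called biological without a statement that cultures were treated separately, so the p-values here reflect variation among these 8 libraries, which may be technical.

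In G1, D-type cyclins with CDK4 or CDK6, and then cyclin E with CDK2, phosphorylate the retinoblastoma protein and its relatives, which releases E2F factors to switch on genes for DNA synthesis. The origin recognition complex, CDC6 and CDT1 load the ring of MCM subunits onto DNA, and CDC45 and the GINS complex turn that ring into the moving helicase. TGF-β is known in epithelial cells for holding this transition back through inhibitors of cyclin-dependent kinases, and large T antigen is known to bind the retinoblastoma protein and to free E2F from it.

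SMURF1 itself (ENSG00000198742, chromosome 7, bases 99027438 to 99144100 of GRCh38, minus strand) stood at 51.4, 50.4, 51.4 and 51.2 CPM (the count scaled to library size) in shSMURF1 cells and at 85.8, 93.3, 88.5 and 88.1 CPM in shControl cells. The groups did not overlap, and its log2 fold change, shSMURF1 over shControl, was -0.80 ± 0.055 (SE), with an adjusted p of 2.86e-09 in edgeR's quasi-likelihood test with Benjamini-Hochberg adjustment over all genes tested. Library totals lay between 14688651 and 16789144 counts in shSMURF1 and between 15000813 and 17030394 counts in shControl. The groups parted on the leading principal component (52.6% of the variance), and on the next (11.6%) shSMURF1 replicate 3 lay at 14.9 while the other 3 shSMURF1 libraries lay between -6.66 and -3.92. That library also had the opposite dependence on GC content to the other shSMURF1 libraries. A smooth curve was fitted to log2 levels against GC content in each library. Its median over genes in the top decile of GC content minus that over the bottom decile was -0.304 in shSMURF1 replicate 3. It was 0.174, 0.217 and 0.296 in shSMURF1 replicates 1, 2 and 4, against -0.145 to -0.0572 in the shControl libraries. For members that passed only without shSMURF1 replicate 3, the value without it is given as well. Of 10 lens epithelial markers, 3 reached 1 CPM in every library, PAX6 among them at 29.9 to 39.5 CPM in shSMURF1 and 31.7 to 35.6 CPM in shControl, while FOXE3, CRYAA, SOX2, PROX1, MAF and CDH1 stayed under 1 CPM in all 8. SIX3 was at 11.5 to 13.8 CPM in shSMURF1 and 15.5 to 18.3 CPM in shControl, a fall of 0.37 on the log2 scale (edgeR adjusted p = 0.0106). The summed level of the lens markers was 325 to 362 CPM in shSMURF1 and 376 to 381 CPM in shControl, most of it CDH2. Fibroblast markers, 7 of 9 of which reached 1 CPM in every library, summed to 1920 to 2630 CPM in shSMURF1 and 2460 to 2680 CPM in shControl, most of it COL1A1. Among them COL1A2 fell by 1.01, while PDGFRB rose by 0.38 and LUM by 2.90 (edgeR adjusted p = 3.36e-11, 9.79e-05 and 1.12e-05). LUM was at a low level, 1.97 to 2.5 CPM in shSMURF1 and 0.135 to 0.56 CPM in shControl. Of 6 immune markers CD14 alone reached 1 CPM in every library (11.5 to 14.2 CPM in shSMURF1 and 5.8 to 8.16 CPM in shControl), with PTPRC and CD68 below it. The part these markers have in the results was not tested.

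E2F factors link the cell cycle genes of the list to its replication genes, and letters that match their motif lie near the start of many members. RefSeq promoters (GRCh38.p14, 250 bases before to 50 after the start) were found for 41 of the 49 members. The letters TTTCCCGC, TTTCGCGC, TTTGGCGC or TTTGCCGC, on either strand, occurred in 21 of these 41 promoters, or 51.2%, against 1164 of 35116 promoters of all genes, or 3.31%. Members were counted once per gene, while the promoters of all genes were counted by entry and were not limited to genes tested. The motif was present in 3 of the 7 promoters of members that rose, in 1 of the 5 of members that fell, and in 17 of the 29 of members not past the test. The letters CCAAT, on either strand and sharing a base with an E2F match in 1 member promoter (MCM7), were in 24 of the 41 promoters (58.5%) against 34.6% of all promoters. The 4 promoters with an E2F motif among the members past the test are printed here with the motif in capitals, 5′ to 3′ on the gene's strand: MCM3 (chr6:52284693-52284992, minus strand), GINS2 (chr16:85688905-85689204, minus strand) and GINS3 (chr16:58392221-58392520, plus strand), which rose, and MCM7 (chr7:100101348-100101647, minus strand), which fell.
MCM3 promoter: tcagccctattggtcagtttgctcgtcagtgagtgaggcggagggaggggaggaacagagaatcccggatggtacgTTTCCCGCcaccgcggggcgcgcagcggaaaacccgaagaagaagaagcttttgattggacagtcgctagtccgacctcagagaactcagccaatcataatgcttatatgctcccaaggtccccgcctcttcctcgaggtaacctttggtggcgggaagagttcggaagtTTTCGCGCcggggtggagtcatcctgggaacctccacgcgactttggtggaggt
GINS2 promoter: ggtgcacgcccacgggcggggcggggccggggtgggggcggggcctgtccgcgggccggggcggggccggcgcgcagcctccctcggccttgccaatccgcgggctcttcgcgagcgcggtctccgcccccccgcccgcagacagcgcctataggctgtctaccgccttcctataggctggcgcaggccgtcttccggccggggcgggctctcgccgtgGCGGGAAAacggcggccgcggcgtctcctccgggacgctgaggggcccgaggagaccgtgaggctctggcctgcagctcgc
GINS3 promoter: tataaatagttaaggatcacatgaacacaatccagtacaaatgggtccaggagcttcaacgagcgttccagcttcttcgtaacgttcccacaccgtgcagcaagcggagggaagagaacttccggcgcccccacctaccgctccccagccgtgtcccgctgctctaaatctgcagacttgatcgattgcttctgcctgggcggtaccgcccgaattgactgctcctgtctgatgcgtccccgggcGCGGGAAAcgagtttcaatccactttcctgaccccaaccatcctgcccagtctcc
MCM7 promoter: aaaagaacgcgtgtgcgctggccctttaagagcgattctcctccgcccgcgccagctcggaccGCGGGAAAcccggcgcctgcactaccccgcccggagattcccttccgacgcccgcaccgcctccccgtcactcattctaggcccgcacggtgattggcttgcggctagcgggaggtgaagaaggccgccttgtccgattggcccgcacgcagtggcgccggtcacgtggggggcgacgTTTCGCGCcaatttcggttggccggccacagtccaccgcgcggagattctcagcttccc
MCM3 and MCM7 each held 2 matches, GINS2 and GINS3 1 each, and a match describes the letters only. The genes with the motif are CDC25A, CDC6, CDT1, E2F1, E2F2, E2F3, GINS1, GINS2, GINS3, LIG1, MCM2, MCM3, MCM6, MCM7, PCNA, POLA1, POLE, RBL1, RFC3, TYMS and UHRF1.

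The 49 genes did not move as a block. Of the 48 tested, 9 rose in shSMURF1 cells (TK1, GINS3, GINS2, CDC45, MCM3, MCM5, FEN1, MCM4 and RPA1), 6 fell (CDK6, CCNE1, RRM2, RPA2, RFC2 and MCM7) and 33 did not pass the test. That is 31.2% of the members at an adjusted p under 0.05, beside 22.5% of all genes tested (10.3% higher and 12.2% lower). DESeq2 (22.7% of all genes, 10.2% higher and 12.5% lower) and limma-voom (22.4%, 10.0% higher and 12.4% lower) called the same 15 members in the same directions. The median log2 fold change was 0.00 over the members and 0.01 over all genes tested, the median size of change was 0.13 against 0.15, and the members ranged from -0.62 (CDK6) to 0.47 (TK1). Summed over the list, the members took 6178, 6132, 6122 and 6163 CPM in the shSMURF1 libraries and 6118, 6074, 6019 and 6058 CPM in the shControl libraries. The shSMURF1 sums all lay above the shControl sums by a small margin. In bulk RNA a smaller share of cells in S phase and less of a transcript per cell cannot be told apart. At an unadjusted p under 0.05 there were 14 members higher and 10 lower, beside 16.2% and 17.4% of all genes tested. The counts by role and by context list below are to be set beside these same shares, and no role or list was tested as a group. In 17 members the groups did not overlap in CPM (23.7% of all genes tested), namely the 15 past the test and the E2F genes E2F2 and E2F3.

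**Figure D1:**
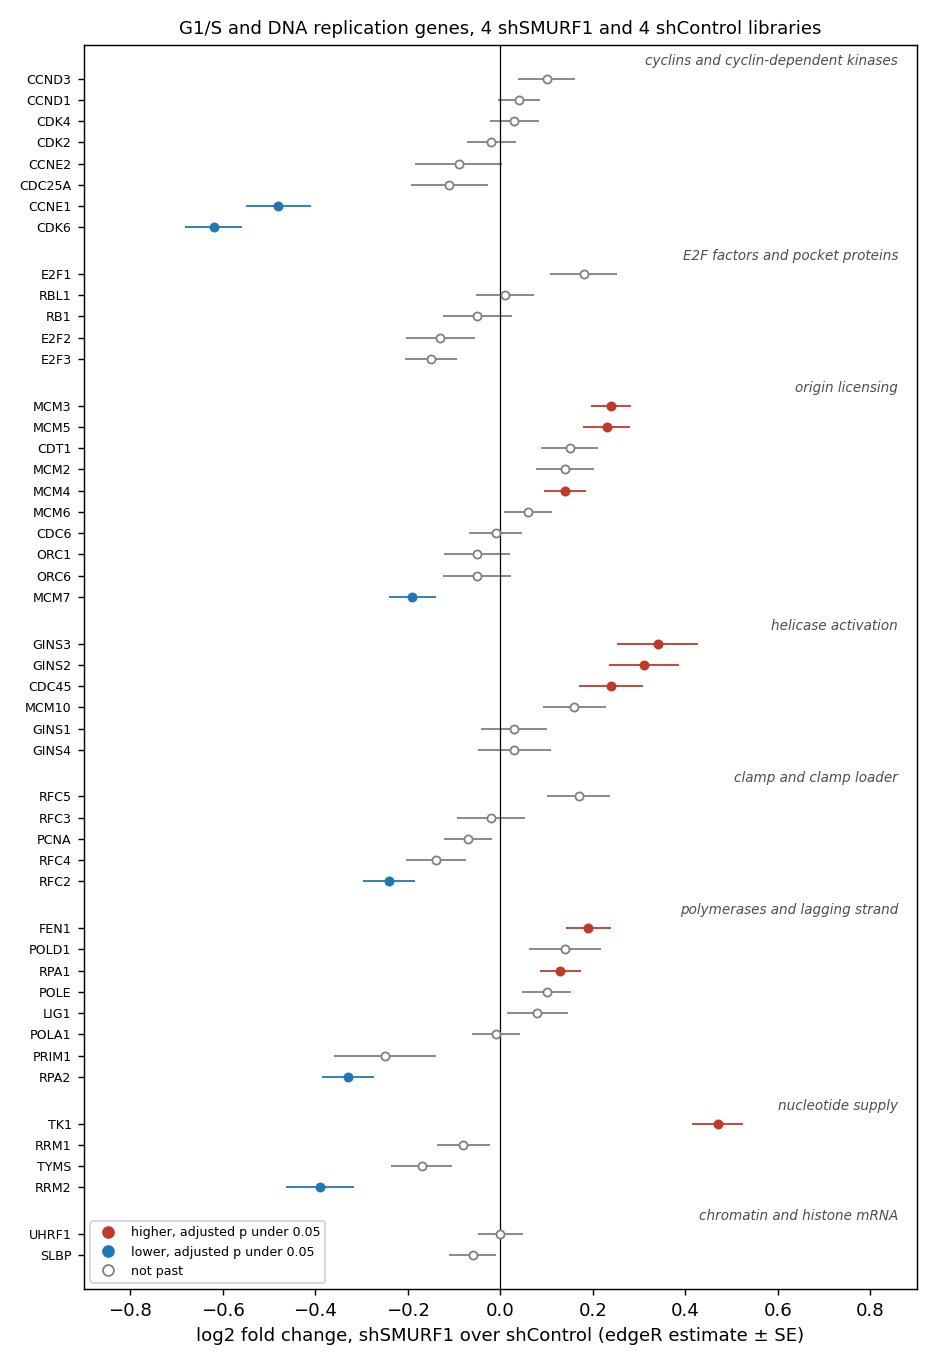
Log2 fold change (shSMURF1 over shControl, edgeR estimate with its standard error as a bar) of the 48 members tested, 1 row each, grouped by role; filled points passed at an adjusted p under 0.05. Members above and below 0 occur together in most roles, from CDK6 at -0.62 to TK1 at 0.47, and the 6 helicase activation genes lie between 0.03 and 0.34.

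Transcripts were at very different levels per length. In shSMURF1 cells the highest members were PCNA at 202, CCND1 at 165, TK1 at 120, MCM3 at 101 and MCM7 at 87.7 CPM per kb of exon, and in shControl cells PCNA at 212, CCND1 at 160, MCM7 at 100, TK1 at 86.3 and MCM3 at 85.0 CPM per kb. MCM7 thus stood above TK1 and MCM3 in shControl cells and below them in shSMURF1 cells. At the low end, the averages in CPM per kb were 4.31 in shSMURF1 and 4.21 in shControl for GINS4, 4.34 and 4.74 for E2F2, 4.91 and 3.87 for GINS3, and 0.0128 in both groups for CCND2.

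**Figure D2:**
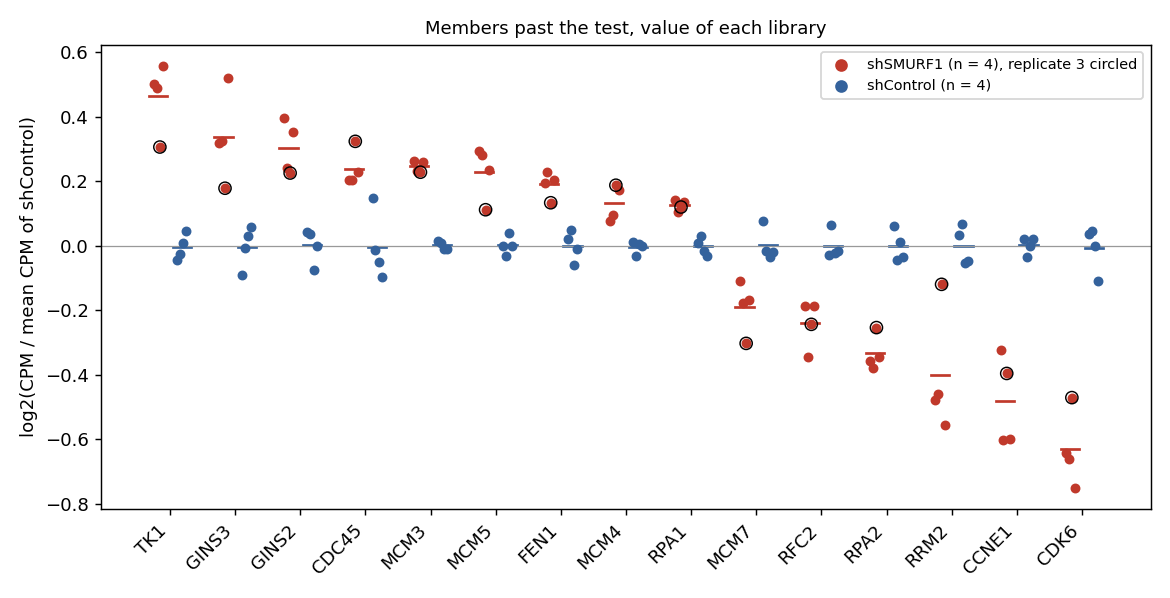
Level of the 15 members past the test in each library, as log2 of CPM over the shControl mean; red points are the 4 shSMURF1 libraries (replicate 3 circled), blue points the 4 shControl libraries, and short lines the group means. The groups do not overlap in any of the 15, and for RRM2 shSMURF1 replicate 3 (196 CPM) lies nearer to the shControl libraries (205 to 223 CPM) than the other 3 shSMURF1 libraries do (145 to 155 CPM).

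Among the cyclins and kinases of G1, the kinase CDK6 and cyclin E1 fell, while cyclin D1 and CDK4 did not pass the test. Of 8 tested, 0 rose and 2 fell. Both other tools, DESeq2 and limma-voom, likewise put none higher, nor did an unadjusted p under 0.05. CDK6 (ENSG00000105810, chromosome 7, bases 92604921 to 92836594), which partners D cyclins to phosphorylate RB1, had 78.1, 77.1, 88.0 and 72.5 CPM in shSMURF1 cells and 125, 126, 122 and 113 CPM in shControl cells. The highest shSMURF1 library lay well below the lowest shControl library, and the log2 fold change was -0.62 ± 0.062 (adjusted p = 4.84e-07). CDK6 lies in a stretch of chromosome 7 where 42 of its 50 nearest tested genes were also lower, with a median of -0.31.

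CCNE1 (ENSG00000105173, chromosome 19, bases 29811898 to 29824308), the cyclin that activates CDK2 at the start of S phase, had 44.9, 37.0, 42.7 and 37.1 CPM in shSMURF1 cells and 57.0, 54.9, 56.1 and 57.0 CPM in shControl cells. Every shSMURF1 library was below every shControl library (40.4 ± 4.03 and 56.2 ± 0.970 CPM, SD, n = 4 each), with a log2 fold change of -0.48 ± 0.070 (adjusted p = 5.3e-05). Its neighbours had a median of -0.04. Its close relative CCNE2 averaged 26.5 ± 3.48 CPM in shSMURF1 and 28.1 ± 2.46 CPM in shControl, a log2 difference of -0.09 with a 95% interval of -0.27 to 0.10. Exons of INTS8 on the other strand cover 37.0% of CCNE2, and no step that keeps the strand is described.

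CCND1, the most abundant cyclin of the list, had 817, 767, 825 and 778 CPM in shSMURF1 and 737, 768, 779 and 807 CPM in shControl. The groups overlapped, and the log2 difference was 0.04 with an interval of -0.04 to 0.13 (adjusted p = 0.528). CDK4, the other partner of D cyclins, had 113, 110, 102 and 114 CPM in shSMURF1 and 106, 109, 107 and 109 CPM in shControl, with an interval of -0.08 to 0.13. TSPAN31 exons on the opposite strand overlap 43.2% of CDK4. CCND3 (0.10, adjusted p = 0.283), the kinase CDK2 (-0.02) and CDC25A (-0.11), the phosphatase that activates CDK2, did not pass the test. Without shSMURF1 replicate 3, CCND3, of 56.2% GC, rose by 0.16 (edgeR adjusted p = 0.008), and with the GC trend removed its difference was 0.05 (adjusted p = 0.462).

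No E2F factor or pocket protein on the list passed in the main fit, which was edgeR with all 8 libraries, the filter on low counts and the GC trend kept. Of 5 tested, 0 rose and 0 fell in edgeR, DESeq2 and limma-voom alike, although at an unadjusted p under 0.05 there was 1 higher (E2F1) and 1 lower (E2F3). E2F1, an activating factor, had 150, 139, 114 and 147 CPM in shSMURF1 and 132, 118, 118 and 120 CPM in shControl. Replicate 3 was the lowest of all 8 libraries and the other 3 shSMURF1 libraries were the highest, and the log2 difference was 0.18 ± 0.073 (adjusted p = 0.0924). Without shSMURF1 replicate 3 the edgeR adjusted p was 4.64e-05, and after removal of the libraries' GC trends it was 0.276, for a gene of 62.5% GC. It also passed without the filter on low counts (adjusted p = 0.0323). E2F3, also an activator, averaged 63.9 ± 3.01 CPM in shSMURF1 and 70.8 ± 2.09 CPM in shControl without overlap (-0.15 ± 0.057, adjusted p = 0.0689). It passed without shSMURF1 replicate 3 (-0.18, adjusted p = 0.00692), and with the GC trend removed it did not (adjusted p = 0.0692). E2F2 averaged 23.7 ± 0.898 CPM in shSMURF1 and 25.9 ± 0.704 CPM in shControl (-0.13, adjusted p = 0.243), and passed with the GC trend removed (-0.19, adjusted p = 0.0454).

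RB1, the retinoblastoma protein, had 92.0, 81.4, 106 and 79.7 CPM in shSMURF1 and 94.4, 97.0, 93.6 and 86.7 CPM in shControl. Replicate 3 was the highest of the 8 libraries for this gene of 37.3% GC, and the interval of the log2 difference was -0.20 to 0.10. Without that library RB1 fell by 0.14 (edgeR adjusted p = 0.0449), and with the GC trend removed its difference was 0.03 (adjusted p = 0.708). RBL1, a second pocket protein, averaged 56.1 ± 2.28 CPM in shSMURF1 and 55.8 ± 3.36 CPM in shControl, with a log2 difference of 0.01.

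In origin licensing the 6 subunits of the MCM helicase ring split: MCM3, MCM4 and MCM5 rose, MCM7 fell, and MCM2 and MCM6 did not pass. Of the 10 licensing genes tested, 3 rose and 1 fell (40.0%, beside 22.5% of all genes tested), with a median log2 fold change of 0.10. MCM3 (ENSG00000112118, chromosome 6, bases 52264009 to 52284881) had 372, 364, 363 and 371 CPM in shSMURF1 and 313, 312, 308 and 308 CPM in shControl. The libraries of each group lay within a narrow band and far from the other (368 ± 4.87 and 310 ± 2.45 CPM), and the log2 fold change was 0.24 ± 0.043 (adjusted p = 0.0003). MCM5 (ENSG00000100297, chromosome 22, bases 35400063 to 35425430) had 229, 227, 202 and 220 CPM in shSMURF1 and 187, 183, 192 and 187 CPM in shControl. Its lowest shSMURF1 library was replicate 3, still above all shControl libraries, and the log2 fold change was 0.23 ± 0.051 (adjusted p = 0.00242).

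MCM4 (ENSG00000104738, chromosome 8, bases 47960185 to 47978160) showed the smaller change of the 3, with 251, 254, 271 and 268 CPM in shSMURF1 and 240, 233, 239 and 238 CPM in shControl. The groups did not overlap, the log2 fold change was 0.14 ± 0.046 and the adjusted p 0.0412. This call was lost in edgeR without shSMURF1 replicate 2 or 4 or without any of the shControl replicates, at adjusted p-values of 0.056 to 0.118. MCM7 (ENSG00000166508, chromosome 7, bases 100092728 to 100101940) went the other way, with 406, 387, 355 and 390 CPM in shSMURF1 and 462, 433, 427 and 432 CPM in shControl. All shSMURF1 libraries lay below all shControl libraries (385 ± 21.4 and 438 ± 15.9 CPM), with a log2 fold change of -0.19 ± 0.050 (adjusted p = 0.00894). MCM7 lies 0.949 Mb from SMURF1, its 50 neighbours had a median of -0.21, and relative to them it stood at 0.02. AP4M1, on the other strand at 23.1 CPM, overlaps 8.94% of its exons.

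MCM2 had 174, 179, 144 and 174 CPM in shSMURF1 and 150, 148, 152 and 160 CPM in shControl. The 3 other shSMURF1 libraries were above all shControl libraries and replicate 3 below them all, and the log2 difference was 0.14 ± 0.062 (adjusted p = 0.127). It passed in edgeR without replicate 3 (adjusted p = 2.08e-04), and with the GC trend removed its adjusted p was 0.209. MCM6 had 152, 161, 173 and 157 CPM in shSMURF1 and 159, 155, 150 and 152 CPM in shControl, with a log2 difference of 0.06 ± 0.052. Replicate 3 was its highest library, and with the GC trend removed MCM6 rose by 0.11 (adjusted p = 0.0296). The ratio of MCM7 to MCM3 in CPM was 1.09, 1.06, 0.979 and 1.05 in shSMURF1 and 1.47, 1.39, 1.38 and 1.40 in shControl, a description of 2 subunits of the same ring chosen with their changes known.

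**Figure D3:**
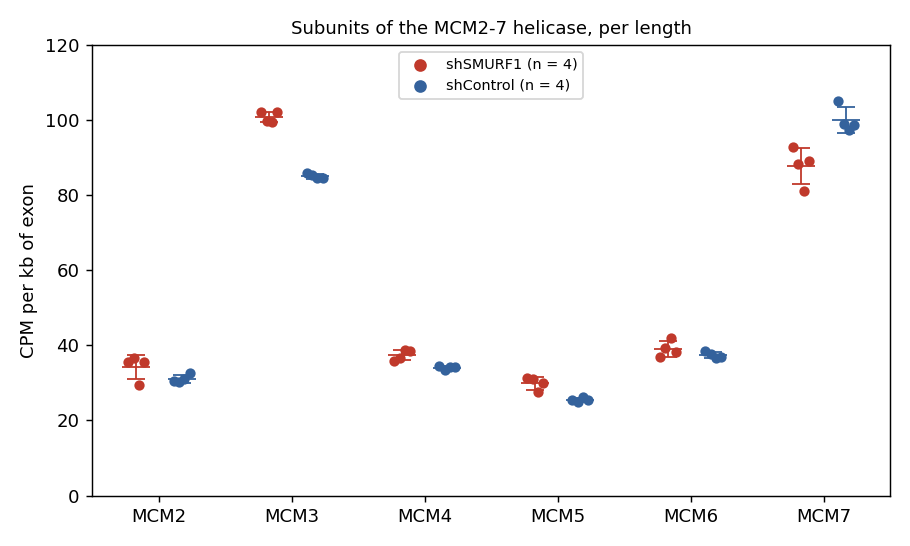
Level of the 6 MCM subunits in CPM per kb of exon in each library; red points are shSMURF1, blue points shControl, with bars for mean and SD (n = 4 each). MCM3 (101 in shSMURF1, 85.0 in shControl) and MCM7 (87.7 in shSMURF1, 100 in shControl) stand above the other 4 subunits in both groups and change places between them.

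None of the loaders on the list passed with all 8 libraries. CDT1, which brings the MCM ring to origins, averaged 76.9 ± 6.19 CPM in shSMURF1 and 69.4 ± 2.18 CPM in shControl (0.15, adjusted p = 0.0953). Without shSMURF1 replicate 3 it rose by 0.20 (edgeR adjusted p = 0.00286), and with the GC trend removed its difference was 0.03, at 64.9% GC. CDC6, its partner, averaged 62.0 ± 1.70 CPM in shSMURF1 and 62.5 ± 2.58 CPM in shControl, and the interval of its log2 difference was -0.13 to 0.10. The origin recognition subunits ORC1 and ORC6 were both at -0.05, although the median of ORC1's neighbours on chromosome 1 was -0.23.

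Among the factors that turn the loaded ring into an active helicase, GINS3, GINS2 and CDC45 rose. Of 6 tested, 3 rose and 0 fell in edgeR, DESeq2 and limma-voom alike, 4 were higher and 0 lower at an unadjusted p under 0.05, and the median log2 fold change was 0.20. GINS3 (ENSG00000181938, chromosome 16, bases 58295080 to 58406144) had 24.7, 24.8, 22.4 and 28.4 CPM in shSMURF1 and 18.6, 19.7, 20.2 and 20.6 CPM in shControl. The groups did not overlap, with replicate 3 the lowest shSMURF1 library, and the log2 fold change was 0.34 ± 0.087 (adjusted p = 0.00708). GINS2 (ENSG00000131153, also chromosome 16, bases 85676198 to 85690073) had 30.4, 27.3, 27.0 and 29.5 CPM in shSMURF1 and 23.8, 23.7, 21.9 and 23.1 CPM in shControl. Here too all shSMURF1 libraries were above all shControl libraries, with a log2 fold change of 0.31 ± 0.076 (adjusted p = 0.00634). The neighbours of these genes had medians of 0.05 and 0.04, so their stretches were not shifted.

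CDC45 (ENSG00000093009, chromosome 22, bases 19479459 to 19520612), which joins MCM and GINS in the active helicase, had 45.8, 45.8, 49.8 and 46.6 CPM in shSMURF1 and 44.1, 39.4, 38.4 and 37.2 CPM in shControl. Replicate 1 was the highest shControl library and came close to the lowest shSMURF1 libraries, and the log2 fold change was 0.24 ± 0.069 (adjusted p = 0.0157). Without shControl replicate 3 or 4 its adjusted p in edgeR was 0.0548 or 0.0678. MCM10, which takes part in helicase activation, had 45.5, 42.9, 43.1 and 46.5 CPM in shSMURF1 and 43.3, 40.4, 37.2 and 38.5 CPM in shControl. The groups overlapped by a small margin, and its difference of 0.16 ± 0.068 missed the threshold (adjusted p = 0.102) and passed it with the GC trend removed (0.21, adjusted p = 0.0138). The other 2 subunits of the same 4-part complex gave no call. GINS1 had 57.4, 56.4, 67.6 and 63.1 CPM in shSMURF1 and 55.0, 60.9, 65.8 and 57.3 CPM in shControl, with an interval of -0.11 to 0.17 on the log2 scale, and GINS4 averaged 23.6 ± 1.71 CPM in shSMURF1 and 23.1 ± 0.446 CPM in shControl, with an interval of -0.12 to 0.19.

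At the sliding clamp and its loader only RFC2 passed in the main fit. Of 5 tested, 0 rose and 1 fell (20.0%, beside 22.5% of all genes tested). DESeq2 and limma-voom gave the same 0 and 1, and at an unadjusted p under 0.05 there was 1 higher (RFC5) and 2 lower (RFC2 and RFC4). RFC2 (ENSG00000049541, chromosome 7, bases 74231499 to 74254458), a small subunit of the clamp loader, had 79.5, 71.3, 76.5 and 79.6 CPM in shSMURF1 and 88.8, 94.8, 89.2 and 89.5 CPM in shControl. The groups were apart, with a log2 fold change of -0.24 ± 0.056 (adjusted p = 0.00367). Its neighbours, of which 39 of 50 were lower, had a median of -0.30.

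PCNA, the clamp itself and the most abundant member per length, had 291, 281, 324 and 293 CPM in shSMURF1 and 322, 306, 302 and 317 CPM in shControl. Replicate 3 was the highest of all 8 libraries while the other 3 shSMURF1 libraries were the lowest, and the log2 difference was -0.07 ± 0.051 (adjusted p = 0.356). RFC4 had 65.3, 64.7, 76.4 and 64.4 CPM in shSMURF1 and 80.8, 72.7, 73.2 and 72.4 CPM in shControl, with -0.14 ± 0.065 (adjusted p = 0.127). In RFC4 too the library out of place was replicate 3. Both genes passed without it (adjusted p = 0.0174 for PCNA and 0.00242 for RFC4), whereas with the GC trend removed neither did (0.488 and 0.101). RFC5 (0.17, adjusted p = 0.0786) and RFC3 (-0.02, adjusted p = 0.914) completed the loader subunits on the list. With the GC trend removed, RFC5 rose by 0.21 (edgeR adjusted p = 0.0107). RFC5 also passed in edgeR without shSMURF1 replicate 3 (adjusted p = 0.0319) and without scaling (adjusted p = 0.0481).

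Among polymerases and lagging-strand factors, FEN1 and RPA1 rose, RPA2 fell, and no polymerase subunit on the list passed with all 8 libraries. Of the 8 members tested, 2 rose and 1 fell (37.5%, beside 22.5% of all genes tested). Outside the list, POLD2 rose by 0.23 and POLE4 fell by 0.30 (edgeR adjusted p = 0.00216 and 0.0136), and the other polymerase subunits tested there did not pass. With the GC trend removed, POLD3 rose by 0.17 and POLE3 by 0.15 (edgeR adjusted p = 0.0111 and 0.0103). The medians of the neighbours of POLD2 and POLE4 were 0.22 and 0.02. FEN1 (ENSG00000168496, chromosome 11, bases 61792637 to 61797244), the nuclease that trims flaps from Okazaki fragments, had 166, 170, 159 and 167 CPM in shSMURF1 and 147, 150, 139 and 144 CPM in shControl. All shSMURF1 libraries were higher, with a log2 fold change of 0.19 ± 0.049 (adjusted p = 0.00748).

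Replication protein A coats single-stranded DNA, and its 2 subunits on the list parted. RPA3, a subunit outside the list, fell by 0.28 with overlapping groups (edgeR adjusted p = 0.0324), and its neighbours had a median of 0.02. RPA2 (ENSG00000117748, chromosome 1, bases 27891524 to 27914746) had 63.3, 62.3, 68.0 and 63.9 CPM in shSMURF1 and 84.6, 78.7, 81.8 and 79.2 CPM in shControl, without overlap and with a log2 fold change of -0.33 ± 0.056 (adjusted p = 1.95e-04). Its neighbours had a median of -0.15, and relative to them it stood at -0.18. RPA1 (ENSG00000132383, chromosome 17, bases 1829702 to 1900082) had 204, 199, 201 and 203 CPM in shSMURF1 and 186, 189, 183 and 181 CPM in shControl. The 2 groups were again apart, yet the log2 fold change was 0.13 ± 0.045 with an adjusted p of 0.0482, and the median of its neighbours was 0.12. Leaving out any library other than shSMURF1 replicate 3 took the adjusted p of RPA1 to between 0.0803 and 0.143 in edgeR.

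POLD1, the catalytic subunit of polymerase delta, had 99.5, 105, 77.6 and 96.2 CPM in shSMURF1 and 83.1, 92.7, 87.2 and 79.4 CPM in shControl. Its GC content of 65.0% is the highest of the list, replicate 3 was its lowest library, and the log2 difference was 0.14 ± 0.077 (adjusted p = 0.199). Without that library POLD1 rose by 0.23 (edgeR adjusted p = 0.000785), and with the GC trend removed its difference was 0.02 (adjusted p = 0.787). POLA1, the catalytic subunit of polymerase alpha, had 93.8, 90.4, 95.5 and 93.4 CPM in shSMURF1 and 94.8, 98.8, 91.3 and 92.0 CPM in shControl, with an interval of -0.12 to 0.09. POLE of polymerase epsilon (0.10), the ligase LIG1 (0.08) and the primase subunit PRIM1 (-0.25 ± 0.11) did not pass. Without replicate 3, POLE and LIG1 both rose by 0.14 (edgeR adjusted p = 0.00442 for POLE and 0.0298 for LIG1), and with the GC trend removed neither passed (0.30 and 0.728). PRIM1, at 9.65 to 12.9 CPM in shSMURF1 and 11.8 to 14.8 CPM in shControl, was the least precise of these, with an interval of -0.47 to -0.02 and an adjusted p of 0.132.

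Nucleotide supply held the largest rise of the list and a fall of similar size. Of 4 tested, 1 rose and 1 fell. TK1 (ENSG00000167900, chromosome 17, bases 78174075 to 78187233), the thymidine kinase of the salvage pathway, had 228, 226, 199 and 237 CPM in shSMURF1 and 156, 158, 162 and 166 CPM in shControl. Replicate 3 was the lowest shSMURF1 library and still above the shControl libraries, and the log2 fold change was 0.47 ± 0.055 (adjusted p = 4e-06). Of its 50 neighbours 49 were higher too, with a median of 0.41, so that TK1 stood at 0.06 relative to them.

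RRM2 (ENSG00000171848, chromosome 2, bases 10120698 to 10131419), the small subunit of ribonucleotide reductase, had 153, 155, 196 and 145 CPM in shSMURF1 and 218, 223, 205 and 206 CPM in shControl. All shSMURF1 libraries were lower, replicate 3 by the least, and the log2 fold change was -0.39 ± 0.073 (adjusted p = 5.24e-04). Without replicate 3 it was -0.50, and with the GC trend removed -0.37. Its neighbours had a median of 0.07, and relative to them RRM2 stood at -0.46. RRM1, the large subunit of the same enzyme, had 190, 191, 221 and 189 CPM in shSMURF1 and 219, 216, 202 and 199 CPM in shControl. Replicate 3 was again the odd library, and the log2 difference of -0.08 ± 0.058 did not pass (adjusted p = 0.347). Without it RRM1 fell by 0.14 (edgeR adjusted p = 0.00909), and with the GC trend removed it did not pass (adjusted p = 0.527). TYMS, which makes thymidylate, had 75.7, 85.5, 84.3 and 92.4 CPM in shSMURF1 and 88.1, 91.2, 99.9 and 102 CPM in shControl, with -0.17 ± 0.066 (adjusted p = 0.0673). It passed with the GC trend removed (adjusted p = 0.0236), and ENOSF1 on the other strand overlaps 39.1% of its exons.

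Neither of the 2 genes for chromatin and histone messages passed in edgeR, where an unadjusted p under 0.05 also gave 0, nor in DESeq2 or limma-voom. UHRF1, which reads hemimethylated DNA behind the fork, had 264, 274, 241 and 267 CPM in shSMURF1 and 259, 261, 269 and 259 CPM in shControl, with an interval of -0.10 to 0.09. SLBP, which binds the stem-loop of histone messages, had 111, 112, 118 and 112 CPM in shSMURF1 and 119, 120, 115 and 117 CPM in shControl, with an interval of -0.15 to 0.04. The medians of their neighbours were both 0.13.

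In some stretches of chromosomes most genes lay on the same side of 0, as in 49 of 50 around TK1, so each member was set beside up to 25 tested genes on each side. In 9 members that median was at least 0.12 in size, and 5 of these 9 passed the test (1 higher, 4 lower, 55.6%), all in the direction of their neighbours, beside 37.1% of all 2720 genes in such stretches. Among these 9, the medians around UHRF1 and SLBP were 0.05 and 0.07 with the GC trend removed, and the others stayed at least 0.12 in size. In the other 39 members 8 rose and 2 fell (25.6%), beside 19.5% of the 12927 genes there. The falls outside shifted stretches were CCNE1 and RRM2, and the rises were MCM3, MCM4, MCM5, CDC45, GINS2, GINS3, FEN1 and RPA1. RPA1 lay at the limit, with a median of 0.12, and over a narrower window of neighbours that median was 0.23. The 3 members on chromosome 7, the chromosome of SMURF1, all fell: MCM7 at 0.949 Mb from it, CDK6 at 6.19 Mb and RFC2 at 24.8 Mb, and around SMURF1 44 of 50 genes were lower, with a median of -0.24. For MCM7, RFC2, TK1 and RPA1 the difference from the neighbours was 0.02, 0.06, 0.06 and 0.01, whereas CDK6 and RPA2 remained at -0.31 and -0.18. How much of each of these changes belongs to the stretch was not tested.

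**Figure D4:**
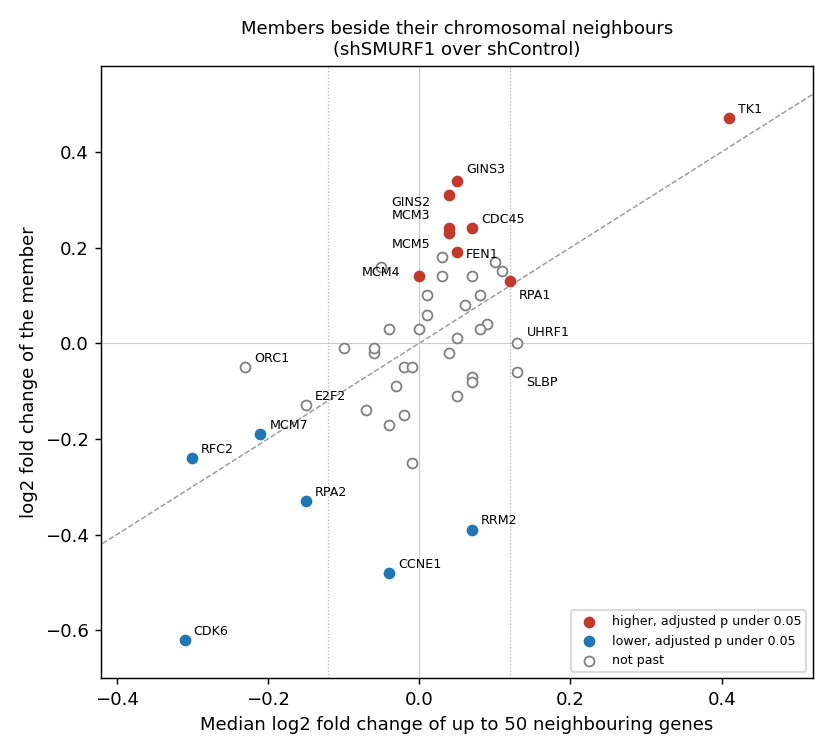
Log2 fold change of each member (vertical axis, shSMURF1 over shControl) against the median of up to 50 neighbouring tested genes (horizontal axis); dotted lines mark a median of 0.12 in size and the dashed line equal values. TK1, MCM7, RFC2 and RPA1 lie near the dashed line, CDK6 and RPA2 below it, and CCNE1, RRM2 and most of the members that rose lie away from it with neighbours near 0.

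The GC trend of the libraries ran through the members as it did through all genes. The 16 members of highest GC content (at least 52.1%) stood 0.12, 0.15 and 0.19 above the 16 of lowest GC content (at most 45.5%) in shSMURF1 replicates 1, 2 and 4 on the log2 scale, and 0.21 below them in replicate 3. In the shControl libraries they stood between 0.08 below and level. Across the 48 members, the log2 fold change followed GC content with a Pearson r of 0.34 and a Spearman rho of 0.32. After the trend was removed from each library these were 0.09 and 0.03, for points that share libraries and composition. With the trend removed, all 15 calls were retained and MCM6, MCM10 and RFC5 rose and E2F2 and TYMS fell besides, which made 12 higher and 8 lower (28.3% of all genes were called so). Without shSMURF1 replicate 3 there were 18 higher and 12 lower (33.7% of all genes), with CCND3, CDT1, E2F1, LIG1, MCM2, MCM10, POLD1, POLE and RFC5 added to the members that rose and E2F3, PCNA, RB1, RFC4, RRM1 and TYMS to those that fell. In that comparison the 15 main calls were again retained, but the 3 shSMURF1 libraries left had GC trends of 0.174 to 0.296 and the shControl libraries -0.145 to -0.0572, so the GC trend and the hairpin cannot be told apart, and r with GC content was 0.45. With both changes there were 12 higher and 9 lower (28.1% of all genes), the additions to the 15 being MCM6, MCM10 and RFC5 (higher) and E2F2, RFC4 and TYMS (lower).

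**Figure D5:**
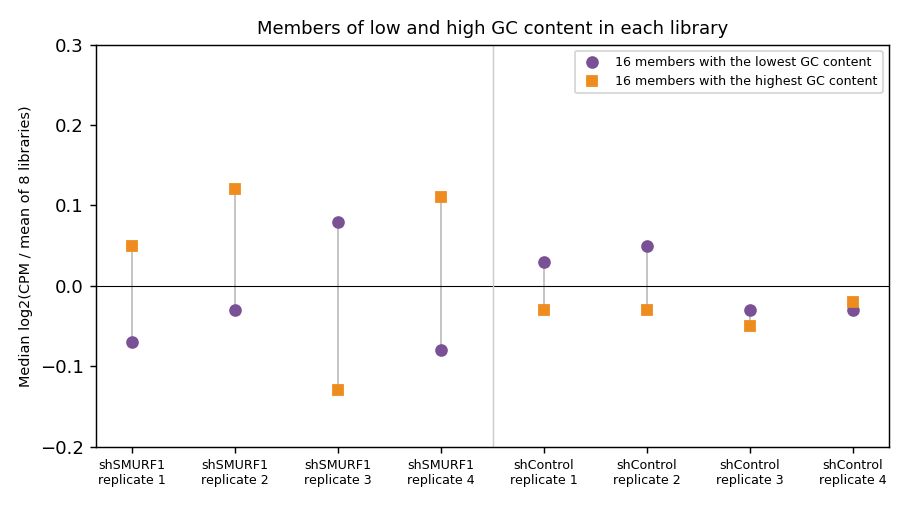
Median log2 of CPM over the mean of the 8 libraries, in each library, for the 16 members of lowest GC content (circles) and the 16 of highest (squares). High-GC members lie above low-GC members in shSMURF1 replicates 1, 2 and 4 (by 0.12 to 0.19) and below them in shSMURF1 replicate 3 (by 0.21), with smaller gaps in the shControl libraries.

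Genes that act around the same transition were read off the same fit. Of the 7 inhibitors of cyclin-dependent kinases, 1 rose and 2 fell (42.9%, beside 22.5% of all genes tested). CDKN1C, the inhibitor p57, had 7.30, 6.45, 6.38 and 8.28 CPM in shSMURF1 and 3.82, 4.99, 5.42 and 4.42 CPM in shControl, a rise of 0.61 ± 0.15 (adjusted p = 0.00645) at a low level. CDKN1A, the inhibitor p21, had 332, 241, 236 and 285 CPM in shSMURF1 and 345, 329, 344 and 347 CPM in shControl. The shSMURF1 libraries were widely spread and replicate 1 lay among the shControl values, and the log2 fold change was -0.32 ± 0.078 (adjusted p = 0.00562). CDKN2C, an inhibitor of CDK4 and CDK6, averaged 129 ± 6.11 CPM in shSMURF1 and 151 ± 8.42 CPM in shControl (-0.23 ± 0.055, adjusted p = 0.00415), and its neighbours on chromosome 1 had a median of -0.24. CDKN2A (-0.07), CDKN1B (-0.07), CDKN2B (0.04) and CDKN2D (0.01) did not pass. With the GC trend removed, CDKN2A, of 61.4% GC, fell by 0.15 (edgeR adjusted p = 0.00373), beside neighbours with a median of -0.14 in the same fit.

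Of 13 further E2F, DP and MuvB-related genes, 0 rose and 2 fell in edgeR, DESeq2 and limma-voom (15.4%, beside 22.5% of all genes in edgeR). At an unadjusted p under 0.05 there were 0 higher and 4 lower, beside 16.2% and 17.4% of all genes. With the GC trend removed there were 1 higher (RBL2) and 3 lower (E2F4 besides). TFDP1, the partner with which E2F factors bind DNA, averaged 376 ± 17.2 CPM in shSMURF1 and 477 ± 6.13 CPM in shControl (-0.34 ± 0.046, adjusted p = 1.7e-05, neighbours -0.12). E2F8, a repressive E2F, averaged 20.7 ± 0.838 CPM in shSMURF1 and 25.3 ± 2.10 CPM in shControl (-0.29 ± 0.083, adjusted p = 0.0142), while MYBL2 (0.07) and E2F7 (-0.04) did not pass. Of 50 other replication genes, 8 rose and 6 fell (28.0%, beside 22.5% of all genes tested). The largest changes past the test were the rise of GMNN, the inhibitor of CDT1 (68.2 ± 7.32 CPM in shSMURF1 and 53.1 ± 4.15 CPM in shControl, 0.36 ± 0.076, adjusted p = 0.00158), and the falls of DBF4, the activator of the CDC7 kinase (-0.40 ± 0.075), ORC5 (-0.32 ± 0.084) and POLE4 (-0.30 ± 0.085). DBF4 and ORC5 lie on chromosome 7 among neighbours with medians of -0.32 and -0.22. DNMT1 (-0.04) and CCNA2 (0.00), the most abundant per length among those not past, had intervals of -0.14 to 0.05 and -0.10 to 0.11.

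Of 30 genes of G2 and mitosis, 3 rose and 2 fell (16.7%, beside 22.5% of all genes tested), and the difference from the 48 members was not tested. BIRC5, which encodes survivin, averaged 191 ± 3.42 CPM in shSMURF1 and 146 ± 2.67 CPM in shControl (0.39 ± 0.046, adjusted p = 4.81e-06). It lies close to TK1 on chromosome 17, where its neighbours had a median of 0.42. KIF23 (-0.22 ± 0.063) and ANLN (-0.18 ± 0.052), both needed for cytokinesis, fell. The phosphatase CDC25B (0.16 ± 0.050, adjusted p = 0.0231) and PLK1 (0.15 ± 0.050, adjusted p = 0.0405) rose. Both of these rises were lost with the GC trend removed (adjusted p = 0.0748 and 0.135). In that fit 3 of the 30 were higher (BIRC5, CCNB2 and KIF20A) and 4 lower (CDC20, AURKB, KIF23 and ANLN), beside 28.3% of all genes. TPX2 (0.04) and UBE2C (-0.06) did not pass.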

How the data were processed

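RNA-seq of 8 SRA01/04 libraries was analysed. The authors deposited a table of unnormalized counts. Their tools were HISAT2 2.0.5 and featureCounts 1.5.0-p3, with CASAVA and fastp, per the submitters' processing notes, and the build behind the counts is not given in the sources used here. Per the labels' protocols, poly-A RNA was selected and no strand-marking step is described. Symbols, coordinates, exon lengths and GC content (longest transcript) came from GENCODE 29 on GRCh38, which held all 58735 identifiers, and promoters from RefSeq.

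Genes were kept by filterByExpr with a minimum count of 10 (15647 genes), scaled by TMM and tested with edgeR 4.0.16 (quasi-likelihood F test, R 4.3.3) without covariates, with Benjamini-Hochberg adjustment over all of them and a threshold of 0.05. CPM were computed over the genes tested with TMM-scaled library sizes, and standard errors from the fold change and F. Total counts of 14688651 to 17030394 per library set the precision. The members, lists and the limit of 0.12 for shifted stretches were chosen with earlier results of these data known. Every member is named, and the values of each library are given for members past the test and for the 2 most abundant others per role. Per context list up to 4 called and 2 other genes are named, with all CDK inhibitors. Further genes are named where removing the GC trend changed their call, and some where they share a complex with members. Alternatives were DESeq2 1.42.0, limma-voom (limma 3.58.1), other scalings and filters, a replicate block, GC trends removed by loess (span 0.5), each library left out, and other neighbour windows. The test was tried on simulated counts with known changes.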

Additional observations from a re-analysis of the deposited data

Results flagged for a closer look

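In 8 of 96 groups (48 members in 2 groups of 4 libraries) 1 library lay far from the other 3 by Dixon's criterion, and chance flags about 1 in 20 groups. Of these, 3 were in shSMURF1 replicate 3: MCM2 at 144 CPM (174 to 179 CPM in the other shSMURF1 libraries), RFC4 at 76.4 CPM (64.4 to 65.3 CPM) and RRM1 at 221 CPM (189 to 191 CPM). In shControl replicate 1, E2F1 stood at 132 CPM (118 to 120 CPM in the others), E2F2 at 26.9 CPM (25.4 to 25.6 CPM) and RFC4 at 80.8 CPM (72.4 to 73.2 CPM). In shControl replicate 2, RFC2 stood at 94.8 CPM (88.8 to 89.5 CPM), and in shControl replicate 3, UHRF1 at 269 CPM (259 to 261 CPM).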

How the results depend on the processing

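The calls of members near the threshold depended on single libraries. Leaving out each library in turn gave 1216 to 2601 genes higher over the whole table, 6 to 18 members higher, 6 to 12 members lower and 5 to 11 other replication genes higher. The upper end came each time from leaving out shSMURF1 replicate 3, and without it the remaining groups differ in GC trend. Of the 15 calls among members, CDC45 was lost without shControl replicate 3 or 4, MCM4 and RPA1 were lost without most single libraries, without the filter on low counts and under the replicate block, and the other 12 were lost in none of the refits run. E2F1 was gained without the filter and RFC5 without scaling. Same-numbered libraries of the 2 groups did not deviate together (correlations of -0.0417 to 0.00742), so the numbers were not taken as pairs. With the replicate block, 1418 genes rose and 1774 fell, with 7 members higher and 7 lower, and TYMS was gained. Without genes in shifted stretches, 1274 genes, 2 members and 2 other replication genes were lower, against 1916, 6 and 6 with them. Higher were 1244 genes, 8 members and 7 other replication genes, against 1611, 9 and 8. Other replication genes higher numbered 15 with the GC trend removed and 14 with the block as well, against 8 in the main fit. They numbered 14 with the GC trend removed and without shSMURF1 replicate 3. Of all genes, 13.3% were higher with the GC trend removed, 13.1% without shSMURF1 replicate 3 as well, and 10.3% in the main fit. The cause was not tested.

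The members' median log2 fold change (0.0026) was 0.025 without scaling, 0.028 with the GC trend removed, 0.027 with the block as well, 0.020 with the GC trend removed and without shSMURF1 replicate 3, 0.034 without shifted stretches, and -0.0087 to 0.019 with a library left out. Relative to neighbours the median (0.022) was 0.0063, 0.0074 and 0.0058 under the 3 GC settings in that order, and 0.0096 to 0.039 with a library left out. In 10 members, none of them past the test, the sign turned under some setting. With the GC trend removed, and with the block as well, the log2 differences were -0.00021 and -0.00062 for CDK4 and 0.030 and 0.029 for RB1. Under the 3 GC settings they were 0.020, 0.019 and 0.044 for CDC6, 0.055, 0.055 and 0.040 for RFC3, and 0.035, 0.035 and 0.055 for POLA1. Without scaling they were 0.0083 for CDC6, 0.0066 for RFC3, 0.0075 for POLA1 and 0.019 for UHRF1. With a library left out they ran from -0.14 to 0.0043 for RB1, -0.015 to 0.049 for RBL1, -0.088 to 0.019 for ORC6, -0.042 to 0.0035 for CDC6, -0.016 to 0.082 for GINS1, -0.011 to 0.069 for GINS4, -0.080 to 0.039 for RFC3, -0.030 to 0.0075 for POLA1 and -0.026 to 0.036 for UHRF1.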
